A study of Mus musculus with 4 samples.

Results

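Lin28a, Lin28b, Hmga2, Igf2bp1, Igf2bp2 and Igf2bp3 are 6 of the 32285 genes counted in single-cell libraries of mouse offspring liver. They were taken by name, as the genes of the LIN28, HMGA2 and IGF2BP circuit. The fetal IHG library held liver cells of male fetuses at E18.5 (embryonic day) whose mothers had intrauterine hyperglycemia (IHG). The fetal Ctrl library held cells of male fetuses of the same age from control mothers. The adult IHG and adult Ctrl libraries held liver cells of male offspring at 8 weeks, taken after portal vein perfusion, again from hyperglycemic and from control mothers. Each of the 4 groups was 1 library pooled from 3 pregnant mice or 3 adults, and all libraries went through enzymatic digestion and red-cell lysis. No strain and no way of inducing the hyperglycemia is given in the labels. The comparisons ask how far these developmentally regulated genes are expressed in fetal against adult liver, in which cells, and whether their level differs with maternal hyperglycemia. With 1 library per group no test between groups was possible. Every interval given is a 95% interval that covers counting error only, not the variation between litters or animals.

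LIN28A and LIN28B are RNA-binding proteins that block the maturation of the let-7 family of microRNAs, and let-7 in turn represses the LIN28 transcripts. HMGA2, an architectural chromatin protein, and the IGF2BP proteins, which bind, transport and stabilise messenger RNAs such as that of Igf2, are also repressed by let-7. In the mouse, Lin28b and Hmga2 are known for their activity in fetal blood-forming stem cells, and Igf2bp3 for a fetal role next to Lin28b in blood progenitors. Most of these genes are known as oncofetal, high in the embryo and low in most adult tissues. Late fetal liver is still a blood-forming organ, so most cells of the fetal libraries were blood cells.

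The repression runs through a short pairing, and the sequences below show both of its sides. The mature microRNAs come from RefSeq (GRCm38.p6), with the seed, bases 2 to 8, in capitals. The 10 let-7 and miR-98 sequences listed there share the seed GAGGUAG, and mmu-let-7j alone has GAGGUAU. These 4 are printed because they show how far members that share a seed differ outside it.
mmu-let-7a-5p: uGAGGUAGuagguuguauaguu
mmu-let-7d-5p: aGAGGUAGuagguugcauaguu
mmu-let-7g-5p: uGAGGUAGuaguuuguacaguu
mmu-miR-98-5p: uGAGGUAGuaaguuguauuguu

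The complement of that seed, CTACCTC, was searched on the transcript strand only, in the longest annotated 3′ untranslated region of each protein-coding gene (GENCODE M21, GRCm38). All 6 genes held at least 1 match, against 8.96% of 20962 untranslated regions. Lin28b, Hmga2 and Igf2bp1 held 4 matches each, Lin28a held 2, and Igf2bp2 and Igf2bp3 held 1 each. Length matters to such a count. Among regions within 20% of its own length, at least 1 match stood in 23.9% for Lin28b, 15.6% for Hmga2 and 33.7% for Igf2bp1, whereas as many as 4 stood in only 0.238%, 0.135% and 0.357%. For Igf2bp2 and Igf2bp3, whose single match is less unusual, 12% and 13.3% of regions of like length held 1. A match is a stretch of letters and not a measured binding site. No library here measured microRNAs. The match nearest the coding sequence in each gene is shown, on the minus strand, with CTACCTC in capitals, since these are the letters through which let-7 is known to act.
Lin28a chr4:134005182-134005205: cctgttgaaCTACCTCatttttgc
Lin28b chr10:45381015-45381038: gcgggaagtCTACCTCatgcaagc
Hmga2 chr10:120364217-120364240: attcaatttCTACCTCagcatcag
Igf2bp1 chr11:95961771-95961794: cgaagtaaaCTACCTCaaggtgtg
Igf2bp2 chr16:22059466-22059489: aaataaaagCTACCTCaggtgttt
Igf2bp3 chr6:49086780-49086803: tttactcaaCTACCTCaggtattc
In each of these 6 windows an A follows the match, the extended form known as an 8mer site.

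The libraries differed in depth and in the cells they held, and both touch every value that follows. After filters, 7925 fetal IHG, 7594 fetal Ctrl, 6500 adult IHG and 4951 adult Ctrl cells remained, with a median of 9709, 7402.5, 2220.5 and 2514 unique molecular identifiers (UMIs, each standing for 1 captured RNA molecule) per cell. Haemoglobin transcripts took 20.4% of the UMIs of the fetal IHG library and 35.4% of those of the fetal Ctrl library, and at most 0.011% in the adult libraries. Cells were clustered within each age, with the 6 genes left out of the clustering, and clusters were named from marker genes. Between 8.07% and 14.5% of the cells of a library lay in clusters that stayed unnamed. The adult libraries, although labelled liver, were mostly lymphocytes and held no cluster named as hepatocytes. Pairs of libraries shared 8 to 26 cell barcodes.

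Most of these genes were fetal. Levels are given as counts per 1000000 UMIs (CPM), with the UMIs of the gene behind them. Lin28a had 294 UMIs (2.96 CPM) in the fetal IHG library, 174 (2.34 CPM) in fetal Ctrl, 0 in adult IHG and 2 in adult Ctrl. Lin28b had 620 UMIs (6.24 CPM) in fetal IHG and 270 (3.63 CPM) in fetal Ctrl, and 0 in both adult libraries. For both, the fetal libraries stood far above the adult ones, where a count of 0 still allows up to 3 UMIs, or 0.165 CPM in adult IHG and 0.180 CPM in adult Ctrl.

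Hmga2 had 1277 UMIs (12.9 CPM) in fetal IHG, 134 (1.80 CPM) in fetal Ctrl, 8 (0.441 CPM) in adult IHG and 7 (0.420 CPM) in adult Ctrl. Igf2bp1 had 281 UMIs (2.83 CPM) in fetal IHG, 31 (0.417 CPM) in fetal Ctrl, 4 in adult IHG and 5 in adult Ctrl. For both, the fetal IHG library was far above the other 3. Hmga2 in fetal Ctrl was still above both adult libraries, while Igf2bp1 in fetal Ctrl lay within their intervals. Igf2bp3, the most abundant of the 6, had 2383 UMIs (24 CPM) in fetal IHG, 1146 (15.4 CPM) in fetal Ctrl, 111 (6.12 CPM) in adult IHG and 79 (4.74 CPM) in adult Ctrl. It kept the most UMIs of the 6 in both adult libraries. Igf2bp2 broke the order, with 273 UMIs (2.75 CPM) in fetal IHG, 48 (0.646 CPM) in fetal Ctrl, 26 (1.43 CPM) in adult IHG and 56 (3.36 CPM) in adult Ctrl. Its highest level was in an adult library and its lowest in a fetal one.

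**Figure D1:**
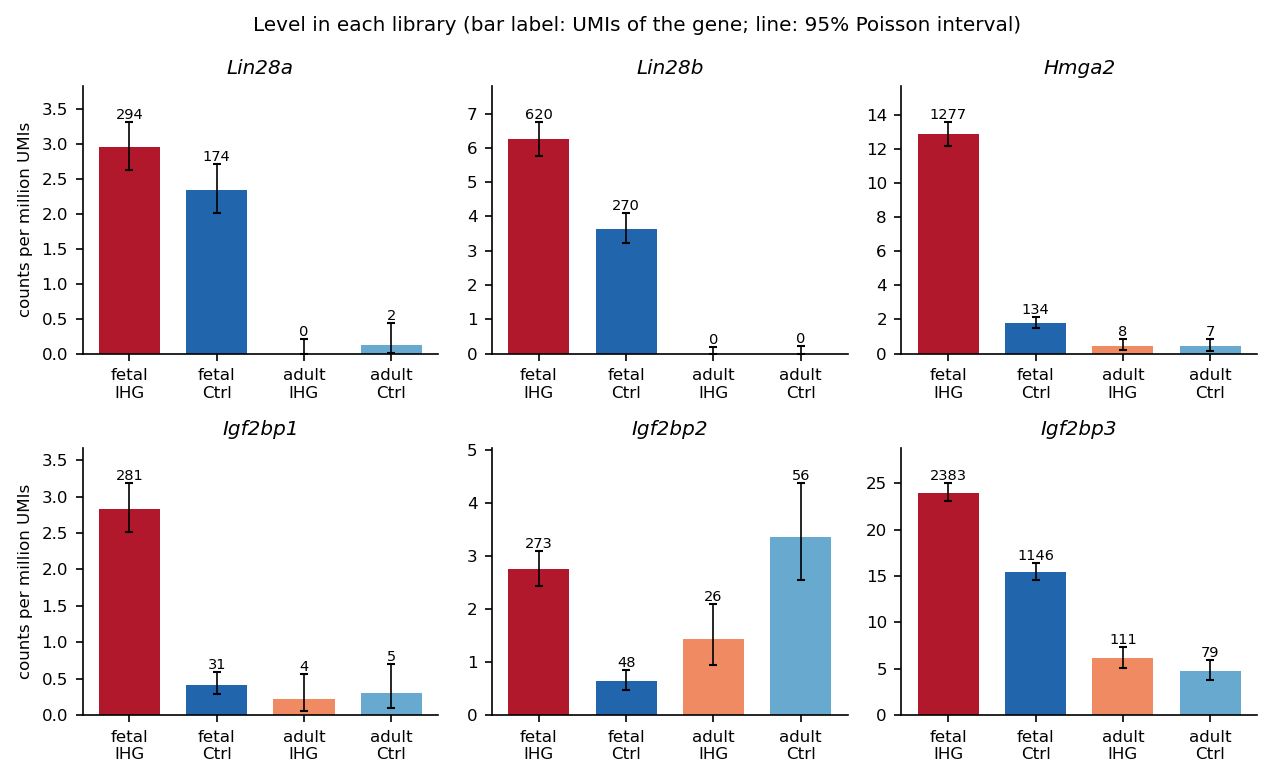
Level of each of the 6 genes in CPM (vertical axis, from 0) in the fetal IHG, fetal Ctrl, adult IHG and adult Ctrl libraries; bars are levels, lines are 95% Poisson intervals and the labels give UMIs. Lin28b has 0 UMIs in both adult libraries, Hmga2 reaches 1277 UMIs in fetal IHG, and Igf2bp2 is the only panel in which adult Ctrl is highest.

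The age difference was given as a log2 ratio of levels, fetal over adult, in which 1 is a 2-fold difference. Among the offspring of hyperglycemic mothers, 5 of the 6 genes were at least 2-fold higher in the fetal than in the adult library, Igf2bp2 being the exception. Lin28a was at least 17.9-fold and Lin28b at least 37.8-fold higher, as bounds against 3 UMIs in the whole adult library. The log2 ratio was 4.78 (3.88 to 6.08) for Hmga2, 3.52 (2.31 to 5.57) for Igf2bp1, 1.97 (1.70 to 2.26) for Igf2bp3 and 0.92 (0.36 to 1.58) for Igf2bp2. Of all genes tested in that comparison, 18.4% were at least 2-fold higher in the fetal library, and the median log2 ratio was -0.48. A gene was compared with at least 20 UMIs over both libraries. Lin28a, Lin28b, Hmga2 and Igf2bp1, with at most 8 UMIs each in adult IHG, reached that number through the fetal library. The count of 5 is therefore not read against the share of all genes. Among the offspring of control mothers, Lin28a, Lin28b, Hmga2 and Igf2bp3 were at least 2-fold higher in fetal liver, as were 10.8% of all genes. Lin28a, Lin28b and Hmga2 had at most 7 UMIs each in adult Ctrl, so the same limit holds for this count. Lin28b was at least 20.2-fold higher, and the log2 ratio was 3.97 (2.41 to 7.34) for Lin28a, 2.01 (1.02 to 3.44) for Hmga2 and 1.69 (1.37 to 2.05) for Igf2bp3. Igf2bp1 did not differ beyond counting error, at 0.36 (-0.90 to 2.19). Igf2bp2 was lower in fetal than in adult Ctrl liver, at -2.38 (-2.97 to -1.80), but so were 53.9% of all genes by at least 2-fold, and the median of all genes was -1.14. Scaling by the median ratio in place of total UMIs gave Igf2bp2 -1.30. In such sums over whole libraries, fewer cells of a type and less RNA per cell cannot be told apart.

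The 6 genes did not share 1 cell type in fetal liver. Lin28a was confined for the most part to cells named neutrophil-like, which held 269 of its 294 UMIs (91.5%) in fetal IHG and 153 of 174 (87.9%) in fetal Ctrl, though they made up 26.8% and 13.1% of the cells. Its level there was 14.6 CPM (12.9 to 16.5) in fetal IHG and 18.45 CPM (15.6 to 21.6) in fetal Ctrl. Myeloid progenitor-like cells, led by the primary granule genes Elane, Mpo and Prtn3, had only 1.74 CPM (12 UMIs) in fetal IHG and 5.13 CPM (6 UMIs) in fetal Ctrl. In both libraries the interval in neutrophil-like cells lay above that in myeloid progenitor-like cells.

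Within the neutrophil-like cells Lin28a was spread over clusters. The cluster led by Mmp8, Retnlg and Ly6g, genes of late granulocytes, had 18 CPM in fetal IHG and 25 CPM in fetal Ctrl. The cluster led by Ltf, Camp and Ngp, genes of secondary granules, had 16.8 CPM in fetal IHG and 22.1 CPM in fetal Ctrl. The earlier cluster led by Fcnb and Cebpe had 9.72 CPM in fetal IHG and 11.4 CPM in fetal Ctrl. A smaller cluster led by Cxcl2 and Il1b had 10.6 CPM (9 UMIs) in fetal IHG and 6.53 CPM (4 UMIs) in fetal Ctrl, with wide intervals. In the first 3 clusters 11.2% to 14.8% of fetal IHG and 14.2% to 17% of fetal Ctrl cells had a Lin28a UMI. In late erythroid cells, the 2 clusters that should lack all 6 genes, the share was at most 0.216% in fetal IHG and 0.274% in fetal Ctrl, at a median of 12740 and 10728 UMIs per cell against 6557 to 13694 in those 3 clusters. The Lin28a share in neutrophil-like cells lay far above that background. With every cell thinned to 1000 UMIs, 1.13% of fetal IHG and 2.85% of fetal Ctrl neutrophil-like cells kept a Lin28a UMI.

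Lin28b was found elsewhere, in B-lineage cells and in an unnamed cluster of large cells. B-like cells had 26.8 CPM (23.2 to 30.8, 195 UMIs) in fetal IHG and 10.8 CPM (9.11 to 12.7, 146 UMIs) in fetal Ctrl. The cluster led by the surrogate light chain genes Vpreb1 and Igll1 and by Rag1, genes of pro-B and pre-B cells, had the most, 45.9 CPM in fetal IHG and 22.1 CPM in fetal Ctrl, with a UMI in 20.9% and 7.63% of cells. Over all B-like cells thinned to 1000 UMIs, with 23 and 110 shallower cells left out, the share was 3.11% in fetal IHG and 1.30% in fetal Ctrl. The cluster of later B cells led by Ms4a1 and the light chains Igkc and Iglc1 had 14.5 CPM in fetal IHG and 10.8 CPM in fetal Ctrl. Fetal cluster 9, led by C1qtnf12 and Car1, had 13.5 CPM (248 UMIs) in fetal IHG and 9.75 CPM (41 UMIs) in fetal Ctrl, with a UMI in 35% and 25.9% of cells. It stayed unnamed because its marker score was too low, and it was also the deepest cluster, at a median of 35248 UMIs per cell in fetal IHG and 31012 in fetal Ctrl. Erythroid-like cells as a whole had 1.96 CPM in fetal IHG and 1.49 CPM in fetal Ctrl. Of those, the least mature cluster, led by Car1, had 7.27 CPM in fetal IHG and 5.48 CPM in fetal Ctrl, against at most 0.342 CPM and 0.438 CPM in the late erythroid clusters.

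Hmga2 had its peak in early progenitors. Fetal cluster 18 had 172 CPM (160 to 185, 757 UMIs) in fetal IHG and 35.7 CPM (24.2 to 50.7, 31 UMIs) in fetal Ctrl. In fetal IHG this was the highest level of any of the 6 genes in a class or cluster of at least 50 cells, whereas in fetal Ctrl Igf2bp3 was higher in monocyte-like cells. It was a mixed cluster that stayed unnamed, with genes of basophils, plasmacytoid dendritic cells and early progenitors among its leading genes. Clustering at a finer resolution split it, a step taken after its values were seen, and the piece named from markers of blood stem and progenitor cells (Cd34, Kit, Hlf, Meis1 and Flt3 among them) held nearly all of its Hmga2. These HSC/progenitor-like cells numbered 192 in fetal IHG and 40 in fetal Ctrl. Hmga2 stood there at 191 CPM (178 to 205, 754 UMIs) in fetal IHG and 59.5 CPM (39.8 to 85.4, 29 UMIs) in fetal Ctrl, with a UMI in 159 of 192 cells (82.8%) and in 13 of 40 (32.5%). Thinned to 1000 UMIs per cell, with 1 and 6 shallower cells left out, the share was 16.8% in fetal IHG (32 cells) and 2.94% in fetal Ctrl (1 cell). The highest count in 1 cell was 22 UMIs, and that cell held 2.92% of the total. The plasmacytoid dendritic-like and the mast/basophil-like pieces had 1 or 2 Hmga2 UMIs in each library.

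After these, Hmga2 stood at 17.9 CPM (123 UMIs) in fetal IHG and 9.40 CPM (11 UMIs) in fetal Ctrl myeloid progenitor-like cells. Endothelial-like cells had 16.7 CPM in fetal IHG and 14.7 CPM in fetal Ctrl, from 22 and 6 UMIs. Cluster 9 had 12.6 CPM in fetal IHG and 2.85 CPM in fetal Ctrl. Intervals in this middle range overlap one another in fetal Ctrl, so no order among these classes was resolved there. Late erythroid cells had at most 3 Hmga2 UMIs in fetal IHG and 0 in fetal Ctrl.

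**Figure D2:**
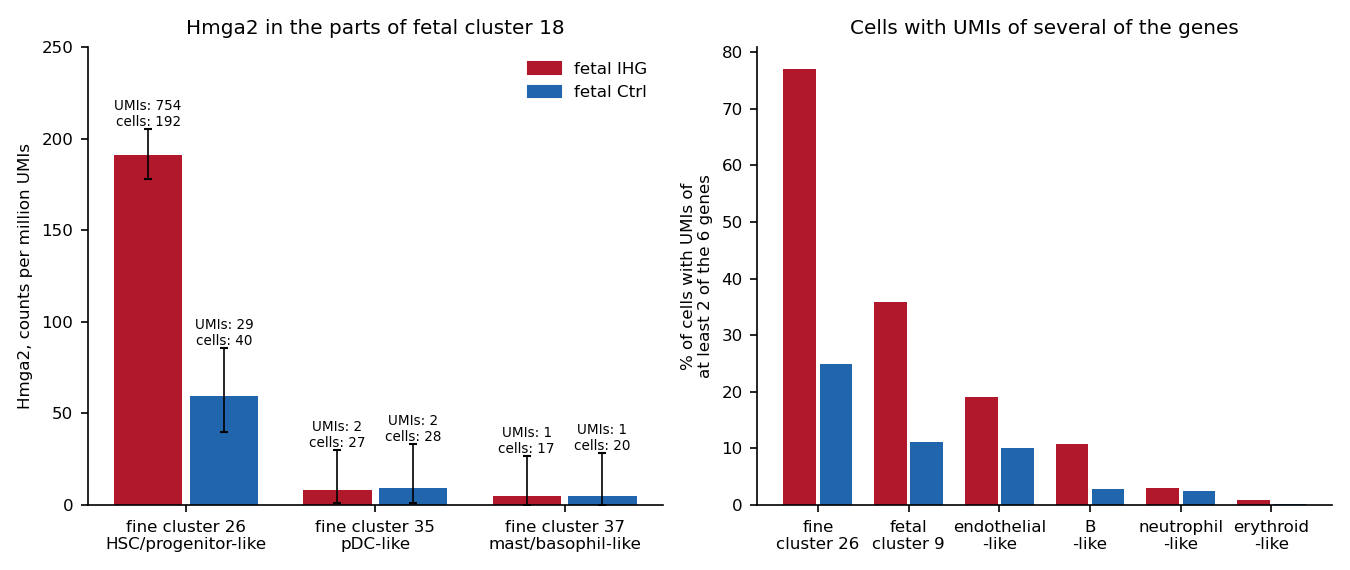
Left, Hmga2 level in CPM (axis from 0) in the 3 pieces of fetal cluster 18, for fetal IHG (red) and fetal Ctrl (blue), with 95% Poisson intervals, UMIs and cells. Right, percent of cells with UMIs of at least 2 of the 6 genes. HSC/progenitor-like cells hold 754 and 29 Hmga2 UMIs and are the cells in which the genes most often occur together, in 77.1% of fetal IHG and 25% of fetal Ctrl cells.

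The 3 IGF2BP genes differed from one another as much as from the rest. Among classes and clusters of at least 50 cells, Igf2bp1 and Igf2bp2 were highest in endothelial-like cells in both fetal libraries. In fetal IHG some blood cells ranked above hepatocyte-like cells, with overlapping intervals. These were macrophage-like cells for Igf2bp1, and cluster 18 and megakaryocyte-like cells (15.9 CPM, 17 UMIs) for Igf2bp2. In endothelial-like cells Igf2bp1 had 34.2 CPM (45 UMIs) in fetal IHG and 9.78 CPM (4 UMIs) in fetal Ctrl, and Igf2bp2 had 41.9 CPM (55 UMIs) in fetal IHG and 22.0 CPM (9 UMIs) in fetal Ctrl. In hepatocyte-like cells Igf2bp1 had 12.6 CPM in fetal IHG and 4.67 CPM in fetal Ctrl, and Igf2bp2 had 14.3 CPM in fetal IHG and 9.35 CPM in fetal Ctrl. The macrophage-like cluster, led by the complement genes C1qa, C1qb and C1qc and by Marco, had 24.9 CPM of Igf2bp1 (49 UMIs in 351 cells) in fetal IHG; fetal Ctrl had 6 such cells and no UMI. Among blood progenitors Igf2bp2 followed Hmga2, with 19.1 CPM (84 UMIs) in fetal IHG and 9.21 CPM (8 UMIs) in fetal Ctrl in cluster 18. Neutrophil-like cells had at most 4 UMIs of either gene in a library.

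Igf2bp3 was broad. It was highest in monocyte-like cells, at 72.4 CPM (63.9 to 81.7) in fetal IHG and 56.3 CPM (45.6 to 68.7) in fetal Ctrl. B-like cells had 64.0 CPM (466 UMIs) in fetal IHG and 47.1 CPM (637 UMIs) in fetal Ctrl, and cluster 18 had 61.5 CPM in fetal IHG and 46.0 CPM in fetal Ctrl. The intervals of these 3 overlapped in either library. Hepatocyte-like cells had 29.5 CPM in fetal IHG and 23.4 CPM in fetal Ctrl, and endothelial-like cells had 25.1 CPM in fetal IHG and 34.2 CPM in fetal Ctrl. Along the neutrophil-like clusters Igf2bp3 had the other order from Lin28a, with 29.7 CPM in fetal IHG and 30.4 CPM in fetal Ctrl in the earlier cluster led by Fcnb, and 12.1 CPM in fetal IHG and 11.7 CPM in fetal Ctrl in the late cluster led by Mmp8. Late erythroid cells had a UMI in at most 1.3% of fetal IHG and 0.582% of fetal Ctrl cells, against 45.1% and 31.3% of monocyte-like cells.

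**Figure D3:**
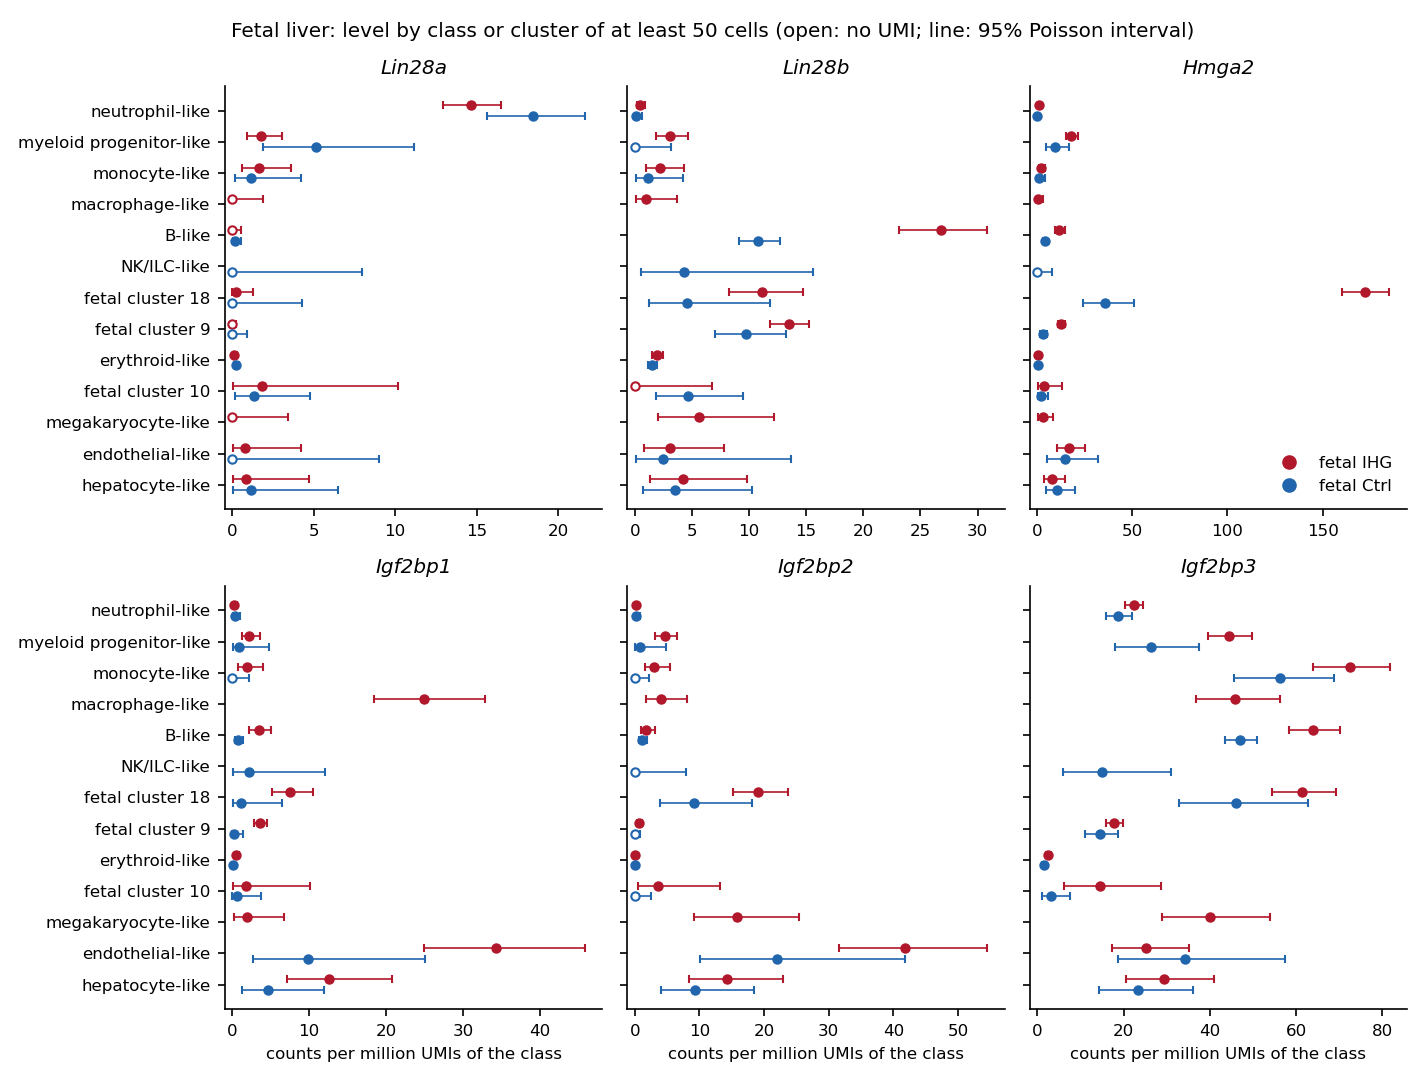
Level of each gene in CPM of the class (horizontal axes, which differ between panels) in fetal classes and unnamed clusters of at least 50 cells, fetal IHG in red above fetal Ctrl in blue; points are levels, lines 95% Poisson intervals, open points 0 UMIs. Lin28a peaks in neutrophil-like, Lin28b in B-like, Hmga2 in cluster 18 and Igf2bp1 and Igf2bp2 in endothelial-like cells, while Igf2bp3 is high in monocyte-like, B-like and cluster 18 cells alike.

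The share of cells with several of these genes was highest in progenitors. UMIs of at least 2 of the 6 genes were found in 8.92% of fetal IHG and 1.98% of fetal Ctrl cells, and in 0 adult IHG and 1 adult Ctrl cells. The share was 77.1% in fetal IHG and 25% in fetal Ctrl HSC/progenitor-like cells, and 35.9% and 11.2% in cluster 9. Endothelial-like cells had 19.1% in fetal IHG and 10% in fetal Ctrl, B-like cells 10.8% and 2.85%, and neutrophil-like cells 2.92% and 2.4%. By number, the 150 such cells in fetal Ctrl included 69 B-like and 24 neutrophil-like cells, against 16 in cluster 9 and 12 in cluster 18. The 707 in fetal IHG included 188 in cluster 9, 154 in cluster 18 and 110 B-like cells. These shares rise with depth, and the HSC/progenitor-like cells had a median of 19750.5 UMIs in fetal IHG and 8238.5 in fetal Ctrl.

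Across 44 sums, 1 for each class or unnamed cluster of at least 50 cells in each library, the genes most like each of the 6 were named by Pearson's r of log2(CPM + 10). These sums share libraries and depth, so r is a description. Lin28a went with Itgb2l (0.96), Abca13 (0.959) and 4930438A08Rik (0.955), and Lin28b with Xrcc6 (0.889), Sapcd1 (0.885) and Abraxas1 (0.835). Hmga2 had looser company, Egfl7 (0.724), Zfp422 (0.694) and Ctsg (0.687). Igf2bp2 went with Maged2 (0.87) and Igfbp4 (0.848), and Igf2bp3 with Pgls (0.804), Bub1b (0.783) and Ccdc28b (0.777). Among the 6 themselves r was 0.645 between Igf2bp1 and Igf2bp2, 0.589 between Lin28b and Igf2bp3, 0.533 between Lin28b and Hmga2 and -0.139 between Lin28a and Lin28b.

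Maternal hyperglycemia was the second contrast. Over all fetal cells, Hmga2, Igf2bp1 and Igf2bp2 were at least 2-fold higher in the fetal IHG than in the fetal Ctrl library, 3 of the 6 genes against 18.3% of all genes. The log2 ratio, IHG over Ctrl, was 2.83 (2.58 to 3.10) for Hmga2, 2.74 (2.22 to 3.35) for Igf2bp1 and 2.08 (1.64 to 2.56) for Igf2bp2. It was 0.78 (0.57 to 0.99) for Lin28b, 0.64 (0.54 to 0.74) for Igf2bp3 and 0.34 (0.06 to 0.62) for Lin28a. The median of all genes, 0.45, lay inside the Lin28a interval and below those of Lin28b and Igf2bp3. The fetal IHG library held more of the cells in which these genes are high, 236 cells of cluster 18 against 87 and 157 endothelial-like cells against 60, and fewer haemoglobin UMIs. With the cluster makeup of the Ctrl or of the IHG library given to both, the log2 ratio was 1.53 or 1.80 for Hmga2, 1.87 or 2.30 for Igf2bp1 and 1.00 or 1.04 for Igf2bp2. Lin28b stayed at 0.74 or 0.68. Lin28a turned to -0.39 or -0.44, and Igf2bp3 was at 0.34 or -0.015. Scaling by the median ratio also took Lin28a below 0, to -0.09.

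Within cell types, Hmga2 and Igf2bp1 were at least 2-fold higher in fetal IHG in cluster 18, cluster 9, B-like and erythroid-like cells. For Igf2bp1 in cluster 18 this rested on 33 UMIs in fetal IHG against 1 in fetal Ctrl, at 2.14 (0.13 to 8.05). In cluster 18, Hmga2 was higher in fetal IHG with a log2 ratio of 2.25 (1.75 to 2.84), and 13.1% of all genes were at least 2-fold higher there. Several of the 6 genes reached 20 UMIs in such comparisons mostly through fetal IHG, so no count of them is read against the share of all genes here or in the classes that follow. For Lin28b (49 UMIs in fetal IHG, 4 in fetal Ctrl) the interval, -0.17 to 3.21, included 0, and with cells thinned to 1000 UMIs the ratio turned to -1.55. In the HSC/progenitor-like piece the Hmga2 ratio was 1.66 (1.15 to 2.27). There Igf2bp3 (0.21, -0.35 to 0.88) and Igf2bp2 (0.46, -0.56 to 1.91) did not differ beyond counting error. The markers Cd34 (145 CPM in fetal IHG, 103 CPM in fetal Ctrl) and Kit (71.0 and 61.5 CPM) were also closer between the libraries than Hmga2. Haemoglobin transcripts stood at 8772 CPM in fetal IHG and 93484 CPM in fetal Ctrl cells of cluster 18, and their part in the ratio was not tested.

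In cluster 9, Hmga2 was higher in fetal IHG at 2.09 (1.31 to 3.12) and Igf2bp1 at 3.34 (1.39 to 9.24, from 66 UMIs against 1), where 5.65% of all genes were at least 2-fold higher. Lin28b there was at 0.45 (-0.01 to 0.98) and Igf2bp3 at 0.29, so neither stood apart from 0. Thinned to 1000 UMIs, too few Igf2bp1 UMIs remained in cluster 9 to hold its direction (-1.87). In B-like cells, Lin28b (1.31, 0.99 to 1.63), Hmga2 (1.57, 1.06 to 2.10) and Igf2bp1 (2.17, 1.11 to 3.44) passed 2-fold, as did 4.19% of all genes. Igf2bp3 was at 0.44 (0.27 to 0.62) against a median of 0.20 over all genes. The B-like class was made of different clusters in the libraries, since the Vpreb1 cluster held 398 of 1019 cells in fetal IHG but 485 of 2417 in fetal Ctrl, where the later B cells were 936. Within the Vpreb1 cluster alone Lin28b stood at 45.9 CPM in fetal IHG and 22.1 CPM in fetal Ctrl (1.05, 0.51 to 1.63). Hmga2 there had 22.7 CPM in fetal IHG and 14.7 CPM in fetal Ctrl, under 2-fold and with an interval that included 0 (0.62, -0.08 to 1.37). In fetal cluster 8, also B-like, Hmga2 was at 1.73 (0.94 to 2.58, 35 UMIs in fetal IHG and 22 in fetal Ctrl). Lin28b in cluster 8 was at 1.35 (0.80 to 1.91). In the later B cells and in fetal cluster 13, the remaining B-like clusters, the Lin28b intervals included 0. Hmga2 had at most 3 UMIs per library in either of them. Haemoglobin stood at 16242.5 CPM in fetal IHG and 79918 CPM in fetal Ctrl B-like cells, and its part was not tested.

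Endothelial-like cells had Igf2bp1 higher in fetal IHG at 1.65 (0.35 to 3.74), where 12.2% of all genes were at least 2-fold higher. Igf2bp2 there (0.86, -0.10 to 2.13) and Hmga2 (0.11, -1.16 to 1.78) had intervals that included 0. In erythroid-like cells Hmga2 (16 UMIs in fetal IHG, 6 in fetal Ctrl) and Igf2bp1 (17 and 4 UMIs) passed 2-fold, as did 4.66% of all genes, at levels below 1 CPM, and thinned to 1000 UMIs the Hmga2 ratio there turned to -1.11. Igf2bp3 in erythroid-like cells was at 0.70 (0.22 to 1.20), against a median of 0.13 over all genes. In myeloid progenitor-like cells Hmga2 was at 0.87 (0.04 to 1.97) and Igf2bp3 at 0.73 (0.21 to 1.33), and Igf2bp2, with 32 UMIs in fetal IHG and 1 in fetal Ctrl, was at 1.88 with an interval that included 0 (-0.14 to 7.79). Neutrophil-like cells went the other way for Lin28a, with a log2 ratio of -0.34 (-0.63 to -0.04). The Lin28a ratio over all cells was therefore of the opposite sign to that in the cells that held most of it. In hepatocyte-like cells, 110 in each library, no gene of the 6 had an interval that excluded 0. Hmga2 there had 9 UMIs in each library, and Igf2bp1 had 15 in fetal IHG and 4 in fetal Ctrl (1.31, -0.22 to 3.48).

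**Figure D4:**
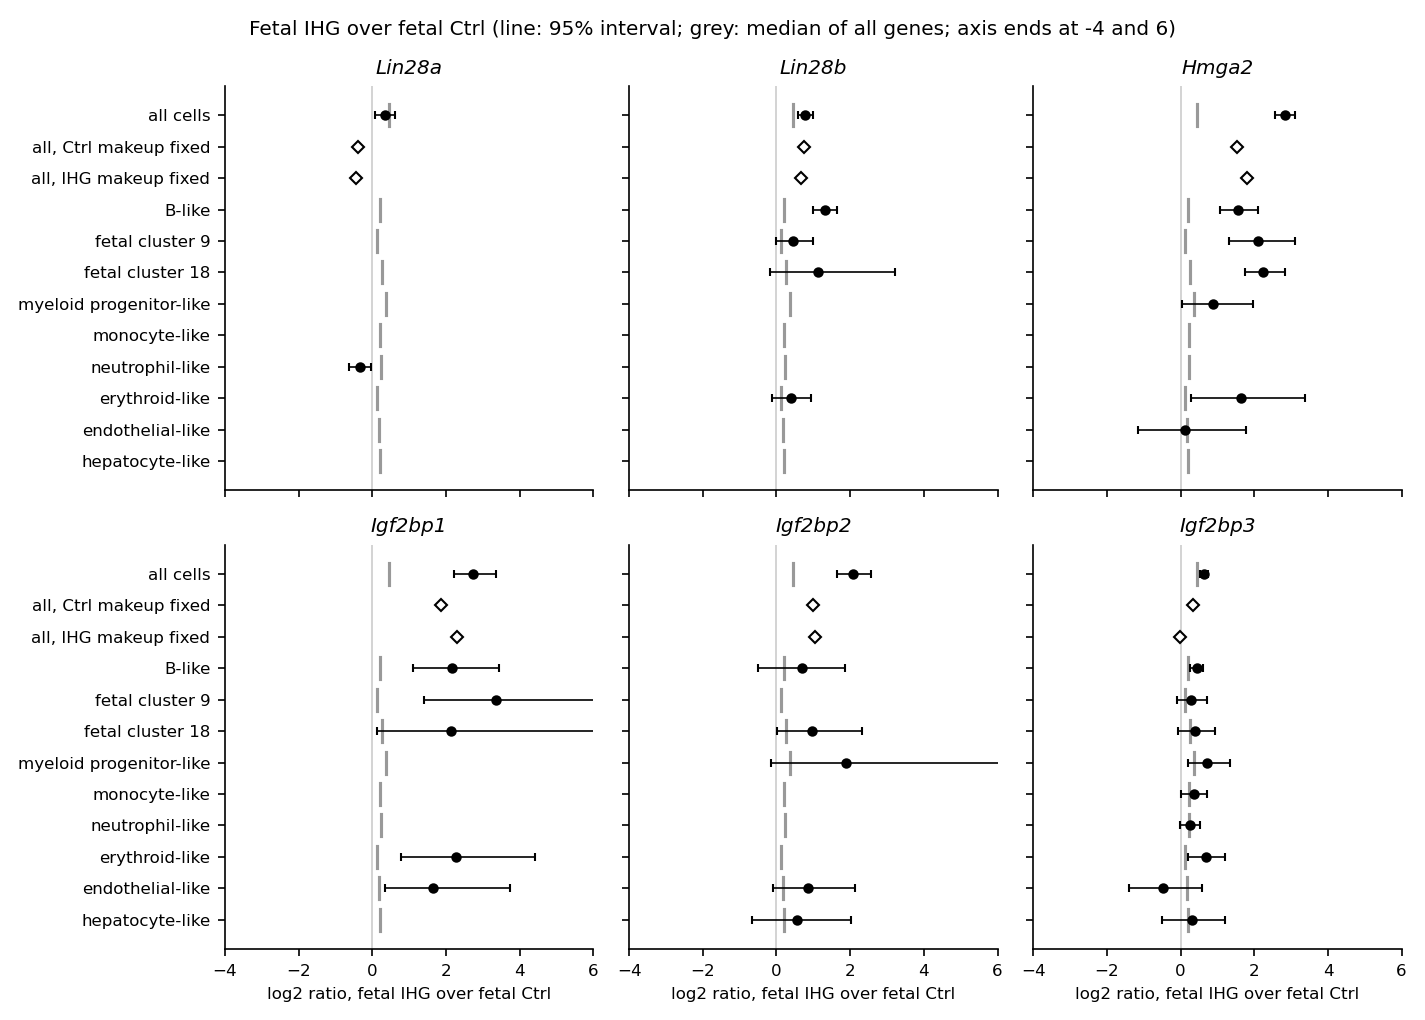
Log2 ratio, fetal IHG over fetal Ctrl, of each gene over all cells and within classes and clusters where both libraries had at least 50 cells and the gene at least 20 UMIs; lines are 95% intervals, grey marks the median of all genes, open diamonds the ratio with 1 cluster makeup given to both libraries. Hmga2 and Igf2bp1 lie above 0 in B-like cells, clusters 9 and 18 and erythroid-like cells, and Lin28a in neutrophil-like cells lies at -0.34. Igf2bp3 is under 2-fold in every row. Its interval lies above the grey mark over all cells and in B-like and erythroid-like cells, and includes the mark elsewhere.

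The fetal and adult libraries shared few cell classes, and B-like cells were the best filled. A gene entered such a comparison with at least 20 UMIs over both libraries, which a gene low in both could not reach. Lin28b had 195 UMIs in fetal IHG B-like cells and 0 in 2664 adult IHG B-like cells, at least 49.7-fold higher. In the Ctrl libraries it had 146 UMIs in fetal and 0 in 1444 adult B-like cells, at least 12.1-fold higher. Hmga2 likewise had 0 UMIs in adult B-like cells and was at least 21.6-fold higher in fetal IHG and at least 4.38-fold higher in fetal Ctrl. For Igf2bp3 the log2 ratio was 2.97 (2.54 to 3.46) for fetal over adult IHG and 2.52 (1.99 to 3.16) for fetal over adult Ctrl B-like cells. Of all genes, 36.0% were at least 2-fold higher in fetal IHG and 30.0% in fetal Ctrl B-like cells. Lin28b and Hmga2 reached the 20 UMIs through the fetal library alone, so no count of genes is read against these shares.

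Adult B-like cells are mature, so the fetal cluster of later B cells led by Ms4a1, chosen after the clusters were seen, was set beside them. Lin28b had 30 UMIs there in fetal Ctrl, at least 12.1-fold above adult Ctrl B-like cells. In fetal IHG it had 19 UMIs there, against 0 in adult IHG B-like cells, under the 20 UMIs set for a ratio. Igf2bp3 stood at 58.8 CPM in the fetal IHG against 8.09 CPM in the adult IHG cells (2.85, 2.31 to 3.42), and at 43.9 CPM in the fetal Ctrl against 8.05 CPM in the adult Ctrl cells (2.43, 1.84 to 3.11). Hmga2 had 0 UMIs in fetal IHG and 3 in fetal Ctrl cells of this cluster, so its fetal B-like level came from the other B clusters.

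Monocyte-like cells gave the same direction for Igf2bp3. Their log2 ratio was 4.36 (2.81 to 7.73) for fetal over adult IHG and 3.48 (1.91 to 6.86) for fetal over adult Ctrl, where 29.5% and 23.2% of all genes were at least 2-fold higher. In NK/ILC-like cells of the Ctrl libraries Igf2bp3 was at 0.82 (-0.77 to 2.15), from 7 UMIs in fetal and 15 in adult cells, which did not differ beyond counting error. In neutrophil-like cells of the Ctrl libraries Lin28a had 153 UMIs in fetal and 1 in adult cells (2.14, 0.22 to 8.03), and Igf2bp3 had 155 and 0 UMIs, with an exact interval of the log2 ratio that starts at 0.83. There 16.5% of all genes were at least 2-fold higher. Adult neutrophil-like cells were shallow, at a median of 1734 UMIs in adult IHG and 1707 in adult Ctrl. At this depth neither gene reached a 2-fold bound in the IHG pair, where each had 0 UMIs in adult cells. The bound for Igf2bp3 was at least 1.43-fold. For Lin28a it was a log2 ratio of -0.10, so no fetal excess was set. The absence of either gene from adult neutrophils was therefore not shown.

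In adult liver only Igf2bp3 and Igf2bp2 had enough UMIs to place. Igf2bp3 was low and even in lymphocytes, at 8.09 CPM in adult IHG and 8.05 CPM in adult Ctrl B-like cells, 8.94 and 8.86 CPM in NK/ILC-like cells and 5.25 and 4.21 CPM in T-like cells. It had 0 UMIs in adult endothelial-like (46 cells in adult IHG), stellate/fibroblast-like (44 cells in adult Ctrl) and mesothelial-like cells. The upper limits of these zeros ran from 5.89 CPM (mesothelial-like, adult Ctrl) to 20.4 CPM (stellate/fibroblast-like, adult Ctrl). They overlap the lymphocyte intervals, so a lower level than in lymphocytes was not shown. Igf2bp2 was highest in stellate/fibroblast-like and mesothelial-like cells, which had under 50 cells in 1 of the 2 libraries each. It had 23.7 CPM (7 UMIs in 34 cells) in adult IHG and 19.1 CPM (12 UMIs in 72 cells) in adult Ctrl mesothelial-like cells, and 18.8 CPM in adult IHG and 27.6 CPM in adult Ctrl stellate/fibroblast-like cells. Adult cluster 12, led by Spp1, Clu and Krt8 with Alb and Ttr behind them, had 4.03 CPM (3 UMIs) in adult IHG and 9.56 CPM (18 UMIs) in adult Ctrl. Of the 5 adult Ctrl UMIs of Igf2bp1 all were in mesothelial-like cells, and of 4 in adult IHG 2 were.

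**Figure D5:**
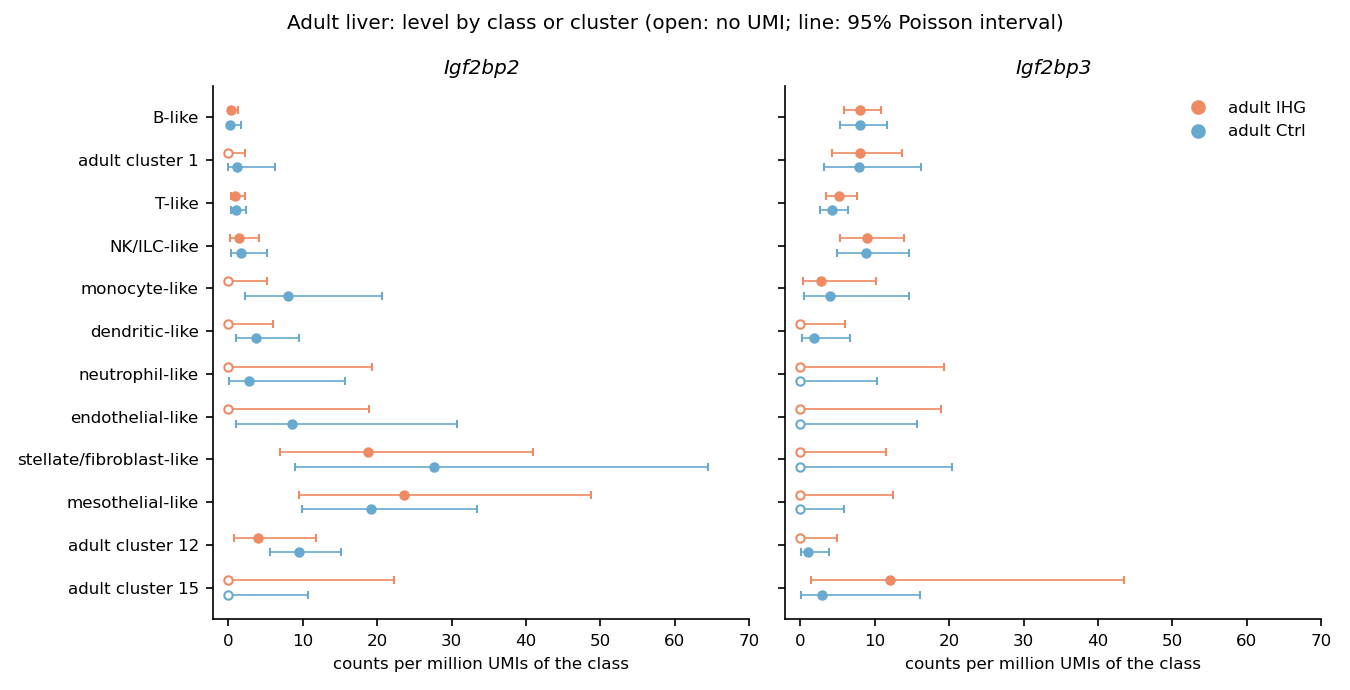
Levels of Igf2bp2 and Igf2bp3 in CPM of the class in adult classes and clusters, adult IHG in orange above adult Ctrl in blue; points are levels, lines 95% Poisson intervals, open points 0 UMIs. Igf2bp2 is highest in stellate/fibroblast-like and mesothelial-like cells (18.8 to 27.6 CPM), most Igf2bp3 UMIs are in lymphocytes, and the intervals of the libraries overlap in every class shown.

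Between the adult libraries only Igf2bp2 passed 2-fold, lower in adult IHG with a log2 ratio of -1.22 (-1.96 to -0.54), where 7.85% of all genes were at least 2-fold lower. The cells that held it differed in number, with 82 cells of cluster 12 in adult IHG against 193 in adult Ctrl, 34 mesothelial-like cells against 72, and 61 stellate/fibroblast-like cells against 44. With the makeup of 1 library given to both it was -0.66 (Ctrl makeup) or -0.77 (IHG makeup), and within cluster 12 it was -1.06 (-3.65 to 0.53), or 1.22 with cells thinned to 1000 UMIs. Igf2bp3 was at 0.36 (-0.06 to 0.80), Hmga2 at 0.06 (-1.59 to 1.76) and Igf2bp1 at -0.41 (-2.78 to 1.77), so none of these differed beyond counting error. At 8 weeks Hmga2 and Igf2bp1 had 4 to 8 UMIs per library. Their adult intervals ended below the fetal log2 ratios over all cells, 2.83 and 2.74. With 1 cluster makeup given to both fetal libraries, Hmga2 was at 1.53 or 1.80, inside or near its adult interval, and Igf2bp1 at 1.87 or 2.30. The difference between ages was not tested.

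Other genes of the circuit were taken from lists. Of 14 measured genes that process let-7 or act with LIN28, 0 were past 2-fold between fetal IHG and fetal Ctrl, with a median log2 ratio of 0.34 against 0.45 for all genes. For fetal over adult IHG 1 was higher and 4 were lower, where 18.4% of all genes were higher and 36.9% lower. For fetal over adult Ctrl 0 were higher and 7 lower, where 10.8% of all genes were higher and 53.9% lower. Tut4, the terminal uridylyltransferase that LIN28 recruits to let-7 precursors, stood at 43.3 CPM in fetal IHG, 34.4 CPM in fetal Ctrl, 201 CPM in adult IHG and 170 CPM in adult Ctrl. Huwe1, whose introns host let-7f and miR-98, stood at 36.2 CPM in fetal IHG, 27.7 CPM in fetal Ctrl, 118 CPM in adult IHG and 121 CPM in adult Ctrl. The level of a host transcript is not that of the mature microRNA.

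Of 23 measured genes known as let-7 targets besides the 6, 5 were at least 2-fold higher and 0 lower in fetal IHG than in fetal Ctrl (median 0.58), a share near that of all genes, 18.3% higher and 2.67% lower. For fetal over adult, 4 were higher and 9 lower among IHG and 3 higher and 13 lower among Ctrl libraries, to be read beside the same shares of all genes as above. Ccnd2, a cyclin, stood at 32.2 CPM in fetal IHG and 13.9 CPM in fetal Ctrl but at 117 CPM in adult IHG and 124 CPM in adult Ctrl. Myc, a transcription factor, stood at 19.4 CPM in fetal IHG and 9.76 CPM in fetal Ctrl and at 197 CPM in adult IHG and 209 CPM in adult Ctrl. Adult libraries were mostly lymphocytes, and these values were not separated by cell type. Transcripts known to be bound by IGF2BP proteins were also mixed, with 2 of 10 higher and 5 lower for fetal over adult IHG. Igf2, the growth factor from which the family is named, stood at 12.4 CPM in fetal IHG, 7.50 CPM in fetal Ctrl, 0.220 CPM in adult IHG and 1.08 CPM in adult Ctrl.

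Other fetal genes give the scale of the age difference. Of 12 measured oncofetal and fetal liver genes, 9 were at least 2-fold higher in fetal than in adult IHG (median 5.57) and 8 in fetal than in adult Ctrl (median 2.62). Afp, the fetal serum protein, stood at 220 CPM in fetal IHG, 106 CPM in fetal Ctrl, 0.771 CPM in adult IHG and 0.721 CPM in adult Ctrl. Of 18 proliferation genes 16 were higher in the fetal library in either pair, and 0 passed 2-fold between fetal IHG and fetal Ctrl (median -0.09). Hmga1, the relative of Hmga2, stood at 31.9 CPM in fetal IHG and 39.3 CPM in fetal Ctrl, opposite in direction to Hmga2.

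All 6 genes lie on the minus strand, and 4 of them overlap a gene on the opposite strand. Whether the counting used strand is not given in the sources used here. Igf2bp3 (chr6:49085223-49214957) shares its 3′ end with Malsu1 (chr6:49073795-49086751), which stood at 16.9 CPM in fetal IHG and 17.2 CPM in fetal Ctrl erythroid-like cells, where Igf2bp3 had 2.51 and 1.54 CPM. In monocyte-like cells Malsu1 had 57.8 CPM in fetal IHG and 40.4 CPM in fetal Ctrl, below the 72.4 and 56.3 CPM of Igf2bp3. The antisense gene 1700006J14Rik (chr10:120364157-120384336) lies inside Hmga2 (chr10:120361275-120476469) and does not reach its 3′ end, at the lower coordinate. It had 92 UMIs in fetal IHG neutrophil-like cells, where Hmga2 had 16, and 3 in fetal IHG cells of cluster 18, where Hmga2 had 757. Gm13061, opposite to Lin28a, had 0 UMIs in all 4 libraries, and Gm29202, opposite to Igf2bp1, had 1.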

How the data were processed

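The files hold UMI counts per gene and cell barcode for 4 libraries, which per the file headers the authors made with Cell Ranger 5.0.0. The submitters' processing notes name Cell Ranger, Seurat and the mm10 build, and the labels a 10x 3′ kit. The aligner's options, the cell filter and the use of strand are not given in the sources used here. The deposited counts were used as they stand, and each library is 1 pool of 3 animals.

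A barcode was kept if it had 300 or more genes and its mitochondrial share did not exceed 25%. Scrublet, as run in scanpy, removed 267 fetal IHG and 107 fetal Ctrl doublets at its own threshold. In the adult libraries its own threshold marked at most 0.0147% of cells, so cells scoring above the 95th percentile were removed, 286 in adult IHG and 244 in adult Ctrl. Kept UMIs were 99281966, 74286810, 18152050 and 16650536 in fetal IHG, fetal Ctrl, adult IHG and adult Ctrl. Each age was clustered on 2000 variable genes, leaving out the 6 genes, listed genes that are no cell type markers, and mitochondrial and ribosomal genes (30 components, 15 neighbours, Leiden resolution 1, no integration). Clusters were named from marker lists of 19 classes and stayed unnamed where the score was low or leading genes belonged to another class. Levels are class sums with exact Poisson 95% intervals, shares have exact Clopper-Pearson intervals, and ratios have exact conditional Poisson intervals, with 0.5 added to each count for the point value. These cover counting error only, and the calculation was tested on simulated data.

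Genes with at least 20 UMIs over both libraries were compared, and "past 2-fold" is a rule of size, not a test. The 6 genes were described in classes of at least 50 cells in at least 1 library of the age (smaller numbers are given beside the values), and compared where both had 50, except the HSC/progenitor-like piece of cluster 18 (40 fetal Ctrl cells); list genes by highest level, up to 4 per list; the 3 most alike genes for members with at least 300 UMIs, among genes with at least 1000, of which 1 is not reported here. The members and lists were chosen with earlier results of these data known. Scripts ran scanpy 1.11.5 with leidenalg 0.10.2 and igraph 0.11.9; intervals came from scipy 1.17.1, tables from pandas 2.3.3 and numpy 2.4.6 and plots from matplotlib 3.10.9, under Python 3.11.15.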

Additional observations from a re-analysis of the deposited data

Results flagged for a closer look

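Igf2bp2 was the only gene of the 6 whose IHG over Ctrl ratios over all cells lay on opposite sides of 0 at the 2 ages, with neither interval including 0. The log2 ratio was 2.08 (1.64 to 2.56) in fetal liver, from 273 UMIs in fetal IHG and 48 in fetal Ctrl, and -1.22 (-1.96 to -0.54) in adult liver, from 26 UMIs in adult IHG and 56 in adult Ctrl. The difference between the ages was not tested, since each group is 1 library. In fetal IHG, fetal cluster 18 held 30.8% of the Igf2bp2 UMIs and endothelial-like cells 20.1%. In fetal Ctrl, B-like cells held 31.3% (15 of 48 UMIs) and endothelial-like cells 18.8%. In adult IHG, mesothelial-like cells held 26.9% (7 of 26 UMIs) and stellate/fibroblast-like cells 23.1%. In adult Ctrl, adult cluster 12 held 32.1% (18 of 56 UMIs) and mesothelial-like cells 21.4%. Adult cluster 12 made up 1.26% of the adult IHG cells and 3.90% of the adult Ctrl cells, and mesothelial-like cells 0.523% and 1.45%. With 1 cluster makeup given to both libraries of an age, the fetal ratio was 1.00 or 1.04 and the adult ratio -0.66 or -0.77.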

How the results depend on the processing

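No paired analysis was possible because each group is 1 library. Of 655 values under alternatives for single genes and for the background of each comparison, 600 stayed within the spread set by counting error, 51 moved and 4 reversed. All 4 reversals came with cells thinned to 1000 UMIs, where few UMIs remain. They were fetal IHG over fetal Ctrl for Hmga2 in erythroid-like cells (-1.11), Igf2bp1 in cluster 9 (-1.87) and Lin28b in cluster 18 (-1.55), and adult IHG over adult Ctrl for Igf2bp2 in adult cluster 12 (1.22). Lin28a over all fetal cells, at 0.34 for IHG over Ctrl, also changed sign but was not counted as reversed. It was at -0.39 or -0.44 with 1 cluster makeup, and below 0 with scaling by the median ratio. Igf2bp3 over all fetal cells, at 0.64, was at 0.34 with the Ctrl makeup and -0.015 with the IHG makeup. Of 40 counts of the 6 genes past 2-fold under alternatives, 38 stayed within 1.5 times. With thinned cells the count was 3 for fetal over adult Ctrl, against 5, and 0 for adult IHG over adult Ctrl, against 1, since fewer genes then reach 20 UMIs. Over all fetal cells the log2 ratio of Hmga2, 2.83, was 1.53 to 2.50 under the 5 alternatives that moved it. With thinned cells Igf2bp1 was 2.11, against 2.74, and Igf2bp2 was 1.08, against 2.08. Keeping doublets, a mitochondrial limit of 50%, Leiden resolution 2, adding 0.1 to each count and leaving out cells over 10% haemoglobin moved none of the values. Giving both libraries 1 cluster makeup was chosen after seeing the data. Depth limits the adult libraries most, and no statement here covers variation between litters.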

Other observations

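A fetal cluster of 9 cells, below the size used for the report, was led by the collagen genes Col1a1 and Col3a1 and by the mesothelial genes Upk3b and Msln. Its 8 fetal IHG cells held 10 Igf2bp2 UMIs (73.2 CPM) and its 1 fetal Ctrl cell held 2, above the level of any larger fetal class. In adult liver, mesothelial-like cells (23.7 CPM in adult IHG and 19.1 CPM in adult Ctrl) and stellate/fibroblast-like cells (18.8 CPM and 27.6 CPM) had the highest Igf2bp2 levels, each from at most 12 UMIs, and each class had under 50 cells in 1 of the 2 libraries. This cluster was picked after its values were seen.

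Other lists around the 6 genes were measured as well. Of 14 measured writers and other readers of N6-methyladenosine, the RNA mark that IGF2BP proteins are known to read, 0 were past 2-fold between fetal IHG and fetal Ctrl (median 0.30), and 5 of 14 and 9 of 14 were lower in fetal than in adult IHG and Ctrl libraries, near the 36.9% and 53.9% of all genes that were lower there. Of 7 measured partners of IGF2BP1, 0 were past 2-fold between fetal IHG and fetal Ctrl (median 0.69), among them Ybx1 at 690 CPM in fetal IHG and 385 CPM in fetal Ctrl. Of 7 measured genes linked to HMGA2, also 0 were past 2-fold there (median 0.02). Of 2 measured let-7 host transcripts 1 was higher in fetal IHG, Mir99ahg, which hosts let-7c, at 1.26 CPM in fetal IHG and 0.619 CPM in fetal Ctrl. Of 12 oncofetal genes, 6 were higher and 2 lower in fetal IHG than in fetal Ctrl, where 18.3% of all genes were higher and 2.67% lower. These lists are described by their counts, and none was tested.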
